A study of Homo sapiens with 11 samples.

Results

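The 10 genes described here encode the methyltransferases that place repressive marks on histone H3 and DNA. They comprise the core of Polycomb repressive complex 2 (EZH2, EED and SUZ12), 4 enzymes that methylate lysine 9 of histone H3 (EHMT1, EHMT2, SUV39H1 and SETDB1), and the 3 DNA methyltransferases (DNMT1, DNMT3A and DNMT3B). They were chosen by gene symbol, with earlier results of these data known. All 10 are among the 28252 genes listed for RNA-Seq of RT4 cells, and 9 are among the 26237 genes listed for H3K4me3 ChIP-Seq of BEAS-2B cells. The promoter of EHMT2 was not analysed here.

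RT4 cells come from a non-invasive human bladder tumour, and BEAS-2B is an immortalized line of human bronchial epithelial cells. Untreated cells (UT) received no nickel, and nickel-exposed cells (Ni-E) had 6 weeks of 100 μM NiCl2. RT4 nickel-washed-out cells (Ni-W) had the same exposure and then 2 weeks in medium without nickel. The BEAS-2B Ni-W cells are 1 population grown from a single exposed cell and kept without nickel for over 6 months, so that a difference between the Ni-W cells and the other BEAS-2B cells may belong to the colony, to nickel or to time in culture, which cannot be told apart. RNA-Seq has 2 replicates for each condition and ChIP-Seq has 1 library for each. The labels call the RT4 libraries duplicates. In the model of condition alone, p-values measure the spread between the 2 libraries of a condition. Where the replicate number is added as a block, they measure what remains of that spread after the difference shared by same-numbered libraries is removed. The RNA-Seq libraries held 17075833 to 27736454 estimated counts, and the ChIP-Seq libraries held 28385721 (UT), 37493944 (Ni-E) and 29933533 (Ni-W) reads, as recovered from the steps in the RPKM values.

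In Polycomb repressive complex 2, EZH2 carries the catalytic domain that methylates lysine 27 of histone H3, EED binds the finished H3K27me3 mark and stimulates the enzyme, and SUZ12 holds the complex together. EHMT1 and EHMT2 work as a pair that places mono- and dimethylation on H3K9 in euchromatin, SUV39H1 makes H3K9me3 in pericentromeric heterochromatin, and SETDB1 makes H3K9me3 at retroelements and zinc finger genes. DNMT1 copies DNA methylation onto the new strand after replication, while DNMT3A and DNMT3B methylate DNA that had none. H3K4me3, the mark measured in BEAS-2B cells, sits at the start of active genes and says nothing directly about where these enzymes act.

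In UT RT4 cells DNMT1 had the highest level, at 57.9 ± 13.4 TPM (a level that allows for transcript length and library size; SD, n = 2). EHMT1 had 33.3 ± 4.29, EED had 30.1 ± 5.87, EZH2 had 24.2 ± 1.03 and SETDB1 had 23.9 ± 1.67. SUZ12 followed with 18.7 ± 11.9, SUV39H1 with 17.6 ± 0.41, DNMT3A with 5.17 ± 0.955 and DNMT3B with 3.26 ± 0.297. The replicate values of EHMT1 and EED overlapped, as did those of EZH2 and SETDB1, of SETDB1 and SUZ12, and of SUZ12 and SUV39H1. DNMT1 lay above EHMT1 in both replicates, EED lay above EZH2, SUV39H1 lay above DNMT3A, and DNMT3A lay above DNMT3B. The maintenance enzyme was thus the most abundant of the DNA methyltransferases, and the 2 that act on unmethylated DNA were the least abundant of the 9 genes with a level above 0.

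**Figure D1:**
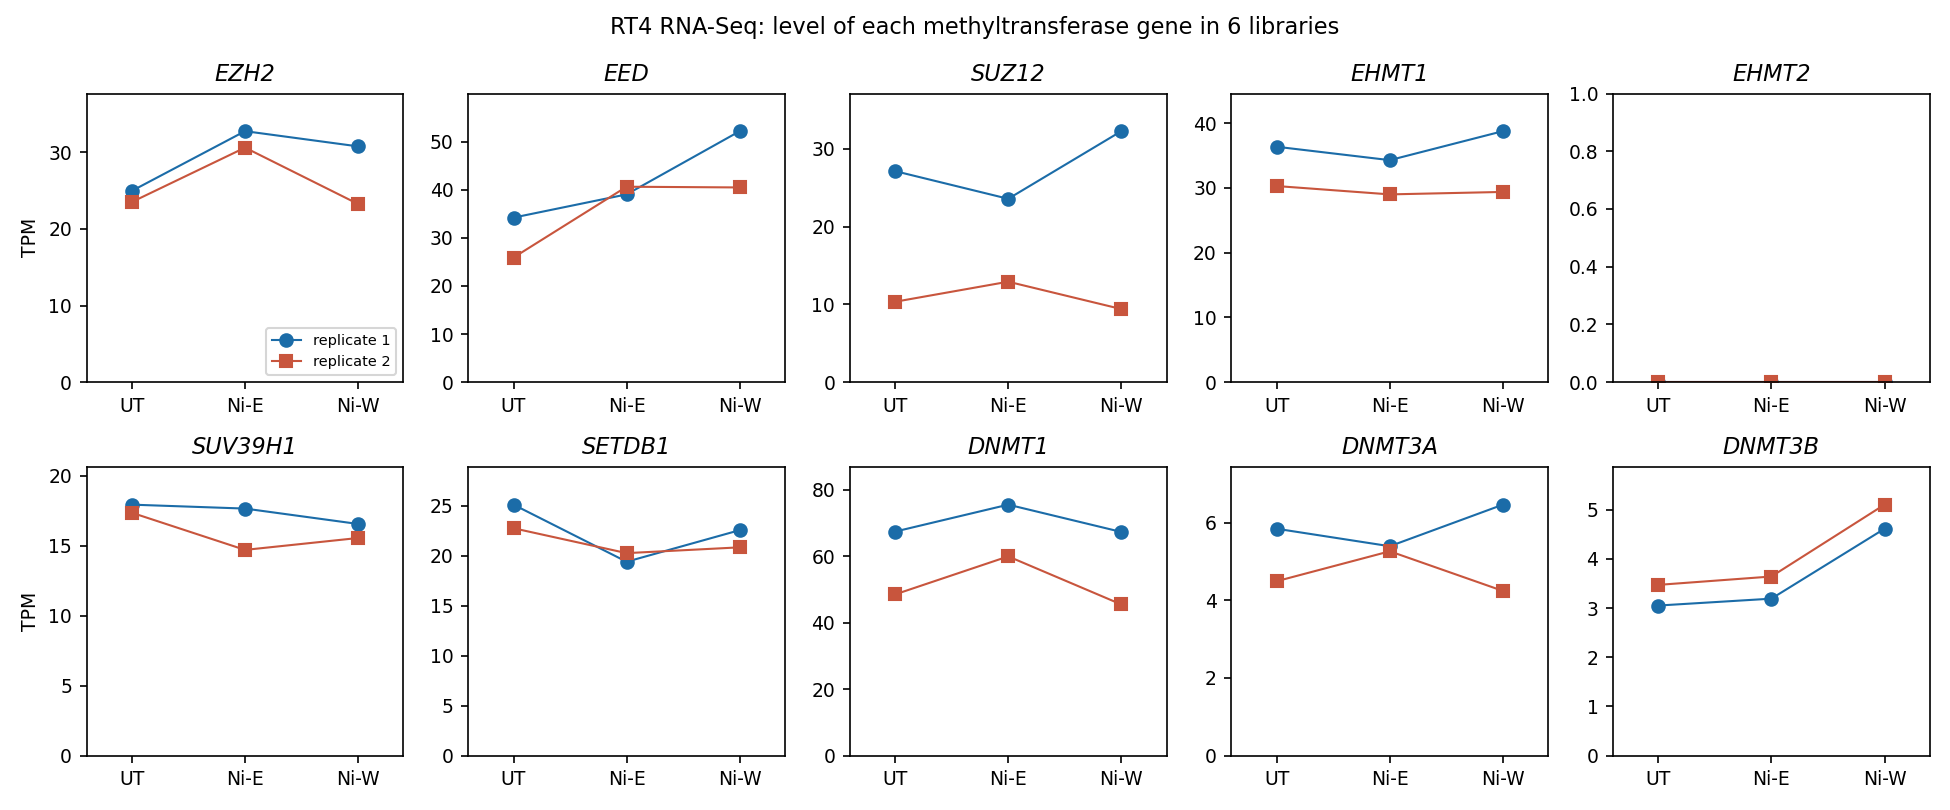
TPM of each gene (vertical axis, starting at 0 and scaled for each gene) in UT, Ni-E and Ni-W RT4 cells, with circles for replicate 1 and squares for replicate 2 and a line joining libraries of the same number. SUZ12 separates by replicate and not by condition. EED, SUZ12, EHMT1, DNMT3A and DNMT3B have their highest means in Ni-W cells, and EHMT2 is listed at 0 in all 6 libraries.

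None of the 9 genes that could be tested rose or fell by the rule of at least 1.5-fold and an adjusted p under 0.05 in Ni-E vs UT, Ni-W vs UT or Ni-W vs Ni-E. By that rule 2.17% of the 14502 genes tested were called in Ni-E vs UT (211 or 1.45% higher and 103 or 0.71% lower) and 0.6% in Ni-W vs UT (73 or 0.503% higher and 14 or 0.0965% lower). With shares this small, 0 of 9 is near the background. For Ni-W vs Ni-E edgeR's quasi-likelihood test called 0% of all genes, although 808 had an unadjusted p under 0.05 and DESeq2 called 139. DESeq2 called 3.75%, 2.27% and 0.714% of the genes it tested in Ni-E vs UT, Ni-W vs UT and Ni-W vs Ni-E, and none of the 9. When the replicate number was added as a block, the calls over all genes went up to 12.6%, 8.57% and 4.52% in the 3 comparisons, and still none of the 9 genes was called. In the model without the block only EED had an unadjusted p under 0.05 among the 9 in any of the 3 comparisons by edgeR's test, in Ni-W vs UT, where 9.12% of all genes did, beside 12.2% in Ni-E vs UT and 5.57% in Ni-W vs Ni-E. The median log2 fold change of the 9 genes was 0.05 in Ni-E vs UT, 0.02 in Ni-W vs UT and 0.06 in Ni-W vs Ni-E, beside -0.01, 0.00 and 0.02 for all genes tested. A p that misses the threshold does not show that a gene was unchanged, so the intervals are given for each gene below.

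**Figure D2:**
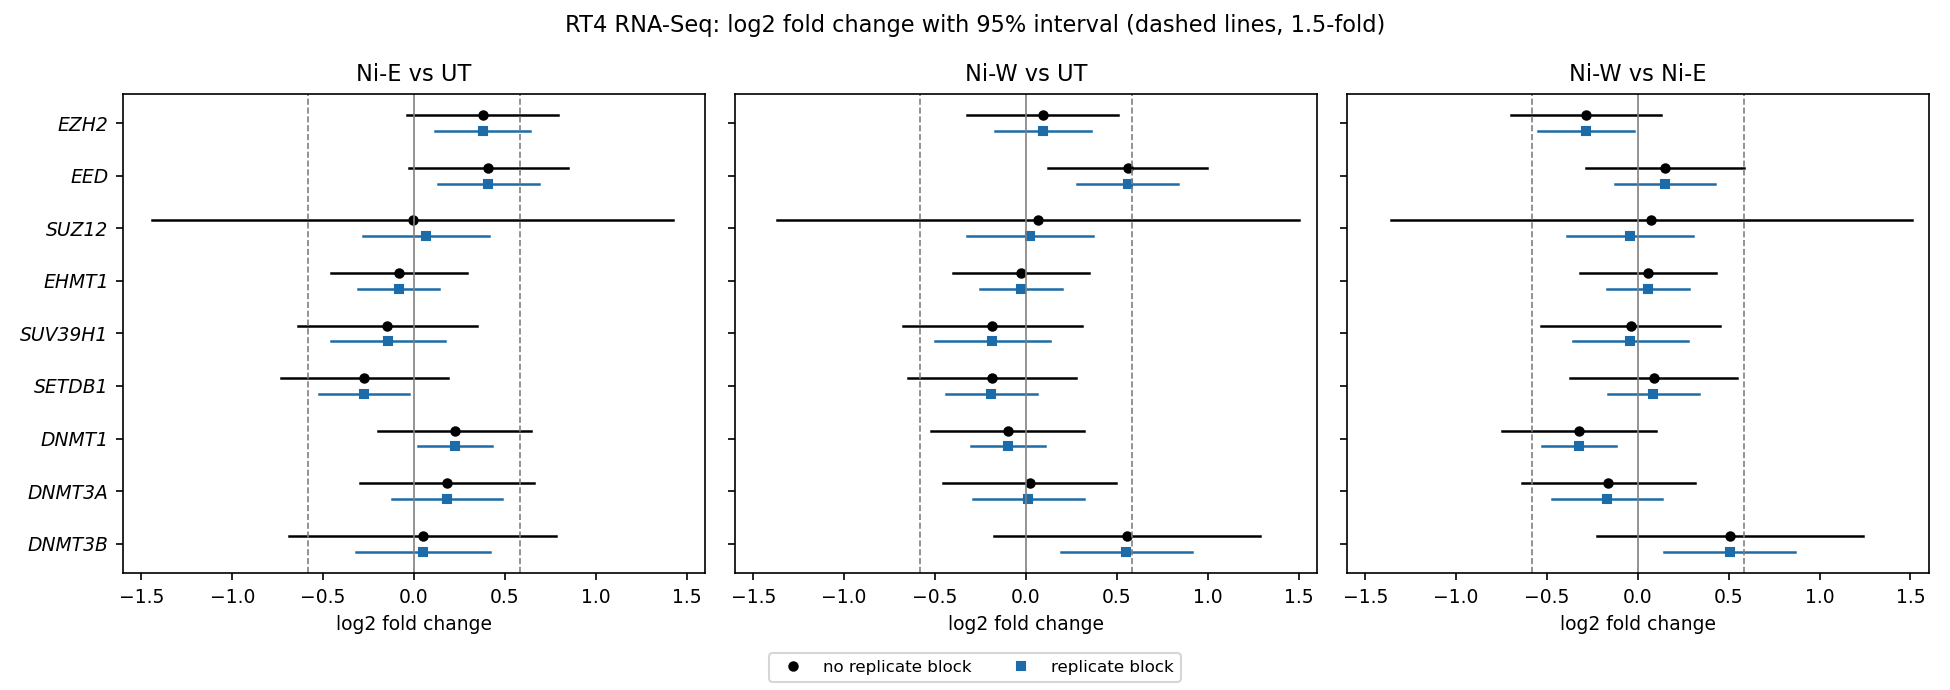
Log2 fold change of the 9 tested genes in RT4 cells (horizontal axis) for 3 comparisons, with 95% intervals, from the model without the replicate block (black circles) and with it (blue squares). Dashed lines mark 1.5-fold. No point lies beyond a dashed line, and the SUZ12 interval without the block is the widest of the 9.

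EZH2, the catalytic subunit (chromosome 7, 148807383 to 148884291 on GRCh38, minus strand, GENCODE canonical transcript), is a well known target of E2F factors, as are many genes of dividing cells. The promoters of EZH2, SUZ12 and DNMT1 are shown because they were the only 3 of the 10 genes whose RefSeq promoter on GRCh38.p14, 250 bases before to 50 after the start, held an E2F-type motif. For DNMT3B the only RefSeq start searched lies 17467 bases from the canonical start, so that the promoter at the canonical start was not searched. The motifs TTTGGCGC, TTTCCCGC, TTTCGCGC and TTTGCCGC were searched on both strands, and 3.31% of 35116 promoters of the same length held at least 1 of them. For the 10 genes 18 starts were searched, and 3 of the 18 held one, a gene with several starts having more chances than a single promoter. The capitals mark the match, which is TTTGGCGC in EZH2, TTTCCCGC in SUZ12 and, read on the other strand, TTTCGCGC in DNMT1.
EZH2 (chr7:148884242-148884541, minus strand): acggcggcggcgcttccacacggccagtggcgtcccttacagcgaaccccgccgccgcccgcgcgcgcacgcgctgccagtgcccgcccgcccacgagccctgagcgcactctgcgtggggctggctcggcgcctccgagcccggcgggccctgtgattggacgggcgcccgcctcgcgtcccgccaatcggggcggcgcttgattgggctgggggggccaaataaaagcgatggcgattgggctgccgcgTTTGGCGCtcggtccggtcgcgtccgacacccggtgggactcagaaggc
SUZ12 (chr17:31936757-31937056, plus strand): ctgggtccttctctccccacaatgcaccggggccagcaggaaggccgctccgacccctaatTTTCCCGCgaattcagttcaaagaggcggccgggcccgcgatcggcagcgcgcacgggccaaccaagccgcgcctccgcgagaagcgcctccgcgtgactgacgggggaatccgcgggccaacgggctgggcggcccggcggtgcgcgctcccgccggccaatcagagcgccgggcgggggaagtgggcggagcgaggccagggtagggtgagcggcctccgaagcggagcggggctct
DNMT1 (chr19:10194904-10195203, minus strand): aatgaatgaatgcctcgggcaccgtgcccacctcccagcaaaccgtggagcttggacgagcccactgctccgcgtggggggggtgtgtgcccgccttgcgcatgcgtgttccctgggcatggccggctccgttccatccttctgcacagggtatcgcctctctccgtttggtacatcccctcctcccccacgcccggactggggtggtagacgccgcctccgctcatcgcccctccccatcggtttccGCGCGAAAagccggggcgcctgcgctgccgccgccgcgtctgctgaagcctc
A match is a description of the letters and not of a bound factor. The 3 promoters hold 46, 40 and 30 CpG dinucleotides in the same order, beside a median of 14 over all promoters. EHMT1 held 51 and EED 16.

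EZH2 had 24.96 and 23.51 TPM in UT cells, 32.75 and 30.6 in Ni-E cells, and 30.76 and 23.24 in Ni-W cells. Both Ni-E libraries lay above both UT libraries, and the Ni-W libraries overlapped with UT. The log2 fold change in Ni-E vs UT was 0.38 (95% interval -0.04 to 0.79, edgeR adjusted p = 0.48), and 0.38 (adjusted p = 0.0509) with the replicate block. It was 0.09 (-0.32 to 0.51) in Ni-W vs UT. The genes of a proliferation list, described further on, summed to 2073 and 1703 TPM in UT, 2562 and 2293 in Ni-E, and 2471 and 1837 in Ni-W cells, and their part in the EZH2 values was not tested.

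EED, the subunit that reads H3K27me3 (chromosome 11, 86244753 to 86278810, plus strand), had the smallest p of the 9 genes. Its levels were 34.2 and 25.9 TPM in UT cells, 39.03 and 40.62 in Ni-E cells, and 52.17 and 40.47 in Ni-W cells. All 4 libraries of nickel-treated cells lay above both UT libraries. Ni-E vs UT gave a log2 fold change of 0.41 (95% interval -0.03 to 0.85, adjusted p = 0.461), and Ni-W vs UT gave 0.56, or 1.475-fold (0.12 to 1.00, adjusted p = 0.354). With the replicate block the fold changes were the same to 2 decimals and the edgeR adjusted p fell to 0.047 and 0.0154, which is under 0.05 but short of 1.5-fold in both comparisons. At an adjusted p under 0.05 with no minimum fold, the blocked model found 10.4% of all genes higher in Ni-E vs UT and 7.5% higher in Ni-W vs UT, and EED was the only one of the 9 genes among them. The genes whose log2 CPM (counts scaled to library size) was most like that of EED over the 6 RT4 libraries were C6orf62 (Pearson's r = 0.984), CEP44 (0.984) and DNAJA1 (0.983), among the 11141 genes averaging 5 CPM or more. The 6 libraries share conditions and replicate numbers, so that r is a description.

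SUZ12 (chromosome 17, 31937007 to 32001038, plus strand) differed more between replicates than between conditions. Its levels were 27.14 and 10.34 TPM in UT cells, 23.58 and 12.92 in Ni-E cells, and 32.28 and 9.4 in Ni-W cells. Replicate 1 was above replicate 2 in each condition by a wide margin, and the conditions overlapped. Without the replicate block the log2 fold change was -0.01 in Ni-E vs UT with an interval from -1.44 to 1.43, so that this model could not have resolved a change of 2-fold. With the block it was 0.07 (edgeR adjusted p = 0.82), and in Ni-W vs UT it was 0.02 (adjusted p = 0.945).

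The difference between the 2 replicates, tested after the values had been seen in a model with condition and replicate, was called in 21.7% of all genes (9.09% higher and 12.7% lower in replicate 2). Replicate 2 was the deeper library in each condition, with 25721265 to 27736454 estimated counts beside 17075833 to 18280556 in replicate 1. The part of depth in these differences was not tested. SUZ12 was the only called one of the 9, with a log2 difference of -1.08 (edgeR adjusted p = 0.000269). SUZ12P1, a partial copy of SUZ12 on the same chromosome, went the other way, with 0.64 (adjusted p = 0.00153). It had 12.31 and 24.71 TPM in UT cells, 15.73 and 24.82 in Ni-E cells, and 12.31 and 21.83 in Ni-W cells. SUZ12P1 took 14.6% to 19.4% of the summed estimated counts of the pair in replicate 1 of each condition and 37.4% to 42.6% in replicate 2. Of the 4495 bases of the SUZ12 transcript, 1167 (26%) matched the SUZ12P1 region at 94.9% identity, so that reads in them could be assigned to either gene. The summed counts of SUZ12 and SUZ12P1, an alternative added after the values were seen, still differed between replicates by -0.6 on the log2 scale (adjusted p = 0.00154), while the summed fold changes were -0.01, 0.02 and 0.02 in Ni-E vs UT, Ni-W vs UT and Ni-W vs Ni-E. How the reads were divided between the 2 genes was not tested.

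**Figure D3:**
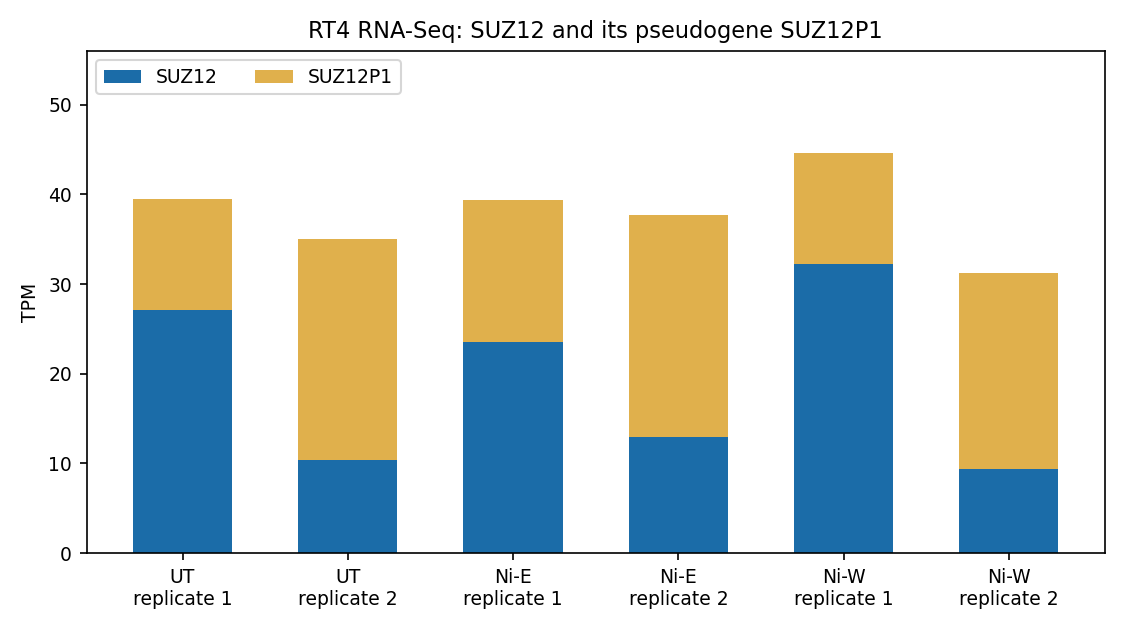
TPM of SUZ12 (blue) and SUZ12P1 (yellow) stacked in each of the 6 RT4 libraries, on an axis from 0. In all 3 conditions replicate 2 has less SUZ12 and more SUZ12P1 than replicate 1, and the sums lie between 31.23 and 44.59 TPM.

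The other genes of the H3K27me3 pathway did not pass the test. Of 10 partners of the complex, 9 could be tested and none was called in any comparison, with or without the block. PHF19, an accessory subunit of the complex, had a log2 fold change of -0.42 in Ni-E vs UT (unadjusted p = 0.0724), and EPOP, another accessory subunit, had 0.36. In Ni-W vs UT without the block the smallest p values were those of PHF1 (-0.63) and the histone binder RBBP4 (-0.2). With the block RBBP7 had the smallest (-0.28, edgeR adjusted p = 0.0982). Of 16 genes of Polycomb repressive complex 1, which reads H3K27me3 and ubiquitinates histone H2A, 15 were tested and none was called, with or without the block. PHC2 had a log2 fold change of 0.26 in Ni-E vs UT, and PCGF5 (0.4) and CBX6 (0.29) had the smallest p in Ni-W vs UT. RING1, the gene of that list left out of the test, was listed at 0 in all 6 libraries, as EHMT2 was.

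Among the H3K9 methyltransferases, SETDB1 (chromosome 1, 150926363 to 150964737, plus strand) had 25.11 and 22.75 TPM in UT cells, 19.4 and 20.26 in Ni-E cells, and 22.56 and 20.84 in Ni-W cells. The 2 Ni-E libraries were the lowest of the 6, below both UT libraries. The log2 fold change was -0.27 in Ni-E vs UT (95% interval -0.73 to 0.19, adjusted p = 0.773) and -0.19 in Ni-W vs UT (-0.65 to 0.27). EHMT1 (chromosome 9, 137619005 to 137836127, plus strand) had 36.37 and 30.3 TPM in UT, 34.3 and 29.01 in Ni-E, and 38.78 and 29.39 in Ni-W cells. The conditions overlapped, with log2 fold changes of -0.08 (-0.45 to 0.29) and -0.03 (-0.40 to 0.35) against UT. SUV39H1 (chromosome X, 48696734 to 48709016, plus strand) had 17.92 and 17.34 TPM in UT, 17.64 and 14.69 in Ni-E, and 16.54 and 15.54 in Ni-W cells. Its Ni-W libraries lay just below the UT libraries, with a log2 fold change of -0.18 (-0.68 to 0.31).

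EHMT2, the partner of EHMT1 (chromosome 6, 31879759 to 31897698, minus strand), was listed at 0 in each of the 6 RT4 libraries. Its entry holds 35 transcript identifiers, 30 of which are numbered copies. The other 9 genes have none. Of the 985 genes with numbered copies 782 (79.4%) were listed at 0 in all 6 libraries, beside 7992 of 27267 (29.3%) without such copies. Genes that most cells use, such as the translation enzyme VARS, the splicing factor LSM2, the elongation factor subunit NELFE and the ion channel protein CLIC1, all with numbered copies, were also at 0. A value of 0 for EHMT2 therefore cannot be read as absence of the transcript, and no fold change is given.

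Of 14 partners and readers of H3K9 methylation, all were tested and none was called by edgeR without the block. ATF7IP, the cofactor that stabilizes SETDB1, had 19.86 and 14.61 TPM in UT cells, 9.73 and 9 in Ni-E cells, and 20.19 and 10.83 in Ni-W cells. Both Ni-E libraries were below all others. Its log2 fold change in Ni-E vs UT was -0.9 (edgeR adjusted p = 0.134), and with the replicate block it was -0.89 and called (adjusted p = 0.00128). DESeq2 without the block called it too, at -0.91 (adjusted p = 0.0361). In Ni-W vs Ni-E it was 0.66 (adjusted p = 0.712), and with the block 0.64 and called (adjusted p = 0.0236). CBX5, which encodes the H3K9me3 reader HP1 alpha, had 11.18 and 9.34 TPM in UT, 14.29 and 12.76 in Ni-E, and 20.62 and 14.14 in Ni-W cells. Its log2 fold change in Ni-W vs UT was 0.69 (adjusted p = 0.173), and with the block 0.69 and called (adjusted p = 0.00174).

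DNMT1 (chromosome 19, 10133346 to 10194953, minus strand) had 67.38 and 48.49 TPM in UT cells, 75.48 and 59.92 in Ni-E cells, and 67.27 and 45.47 in Ni-W cells. Replicate 1 was above replicate 2 throughout, and the conditions overlapped. Within each replicate number the Ni-E library was the highest. The log2 fold change was 0.22 (95% interval -0.20 to 0.65) in Ni-E vs UT and -0.32 (-0.75 to 0.10, edgeR adjusted p = 1) in Ni-W vs Ni-E, the latter with an adjusted p of 0.0717 under the block. DNMT3A (chromosome 2, 25227874 to 25341925, minus strand) had 5.84 and 4.49 TPM in UT, 5.39 and 5.26 in Ni-E, and 6.46 and 4.24 in Ni-W cells. The conditions overlapped, with log2 fold changes of 0.18 (-0.29 to 0.66) and 0.02 (-0.46 to 0.50) against UT.

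DNMT3B (chromosome 20, 32762385 to 32809356, plus strand), the least abundant of the 9, had 3.05 and 3.47 TPM in UT cells, 3.19 and 3.64 in Ni-E cells, and 4.61 and 5.1 in Ni-W cells. Both Ni-W libraries lay above the other 4. The log2 fold change in Ni-W vs UT was 0.56, or 1.471-fold (95% interval -0.18 to 1.29, adjusted p = 0.766), with an edgeR adjusted p of 0.0539 under the block. Leaving out 1 library gave 0.27 (without Ni-W replicate 2) to 0.80 (without Ni-W replicate 1). In Ni-W vs Ni-E it was 0.51 (-0.22 to 1.24). The order of abundance, DNMT1 above DNMT3A above DNMT3B, held in 5 of the 6 libraries, since DNMT3B (5.1 TPM) was above DNMT3A (4.24 TPM) in Ni-W replicate 2.

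Of 14 partners and readers of DNA methylation, 13 were tested and none was called by edgeR without the block. HELLS, a chromatin remodeller needed for DNA methylation, had 23.51 and 20.32 TPM in UT, 34.87 and 35.06 in Ni-E, and 43.5 and 25.31 in Ni-W cells. All libraries of nickel-treated cells lay above both UT libraries. CDCA7, which works with HELLS, had 33.61 and 23.66 TPM in UT, 51.92 and 40.55 in Ni-E, and 38.58 and 22.2 in Ni-W cells. The log2 fold changes in Ni-E vs UT were 0.67 for HELLS (edgeR adjusted p = 0.244) and 0.69 for CDCA7 (adjusted p = 0.253), and both were called with the block (adjusted p = 0.0107 and 0.00205). CDCA7 was lower in Ni-W vs Ni-E by a log2 fold change of -0.67 (adjusted p = 0.689), which with the block was -0.68 and called (adjusted p = 0.00666). UHRF1, which brings DNMT1 to hemimethylated DNA, had -0.54 in that comparison (adjusted p = 0.722) and -0.25 in Ni-W vs UT.

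For removal of DNA methylation, 6 genes (TET1, TET2, TET3, the base excision enzyme TDG, and IDH1 and IDH2, which make the cosubstrate of TET enzymes) were tested and none was called by edgeR without the block. TET2, which oxidizes methylated cytosine, had 7.25 and 3.22 TPM in UT, 11.74 and 5.92 in Ni-E, and 13.51 and 3.7 in Ni-W cells, and its log2 fold change in Ni-E vs UT was 0.76 (edgeR adjusted p = 0.825), called with the block at 0.78 (adjusted p = 0.00733). IDH1 had -0.41 in Ni-E vs UT and -0.45 in Ni-W vs UT. Of 7 genes that supply the methyl donor, 6 were tested and none was called in any comparison, with or without the block, AHCY having 0.28 in Ni-E vs UT. Of 10 germline genes whose promoters DNA methylation is known to silence in somatic cells, 6 were listed at 0 in all 6 libraries. The 10 together had 1.04 and 1.33 TPM in UT, 0.5 and 0.75 in Ni-E, and 0.36 and 0.54 in Ni-W cells. MAGEB2, the only one tested, had 0.93 and 1.04 TPM in UT, 0.07 and 0.21 in Ni-E, and 0.16 and 0.25 in Ni-W cells. It was the most abundant of the 10 in UT cells. SYCP3 was above it in Ni-E cells (0.43 and 0.51 TPM) and in Ni-W replicate 2 (0.26 TPM). The log2 fold changes of MAGEB2 were -2.64 (edgeR adjusted p = 0.133) and -2.16 (adjusted p = 0.284) against UT. Both were called with the block (adjusted p = 0.0115 and 0.0322). They rest on few counts, 13 and 24 in UT, 1 and 5 in Ni-E, and 2 and 6 in Ni-W cells.

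Proliferation genes were examined because DNMT1 and EZH2 are expressed most in dividing cells. All 18 were tested, and 1 rose in Ni-E vs UT. TYMS, thymidylate synthase, had 162.05 and 110.13 TPM in UT, 322.94 and 276.88 in Ni-E, and 267.56 and 172.69 in Ni-W cells, a rise of 2.209-fold in Ni-E vs UT (edgeR adjusted p = 0.0456). That call was lost without any one of the 4 UT and Ni-E libraries (log2 fold change 1.01 to 1.3). It was also lost with at least 10 counts in every sample (edgeR adjusted p = 0.0514). In limma it was lost on log2(TPM + 1) (adjusted p = 0.195) and on log2(TPM + 0.1) (adjusted p = 0.2). The median log2 fold change of the 18 genes was 0.23 in Ni-E vs UT (13 above 0), 0.14 in Ni-W vs UT (11 above 0) and -0.36 in Ni-W vs Ni-E (8 above 0). With the block, TYMS and RRM2 rose and AURKA fell in Ni-E vs UT, TYMS rose in Ni-W vs UT, and in Ni-W vs Ni-E the mitotic genes TOP2A, CCNB1 and AURKA rose while E2F1 fell. PCNA, the most abundant gene of the list, is also in the list of partners of DNA methylation.

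The RT4 libraries carried the markers of their labelled tissue. All 15 urothelial markers were tested, and their sum was 13863 to 17540 TPM. KRT19 was the most abundant in UT cells (4696.56 and 5098.81 TPM, beside 4383.53 and 4779.09 for KRT7). KRT7 was the most abundant in Ni-E and Ni-W cells. Of the 15 markers, KRT20 and UPK1A, genes of the outermost urothelial cells, fell in Ni-E vs UT. KRT20 had 11.07 and 11.27 TPM in UT, 0.25 and 0.11 in Ni-E, and 1.59 and 1.37 in Ni-W cells, 0.0153-fold in Ni-E vs UT (edgeR adjusted p = 0.0085) and 0.128-fold in Ni-W vs UT (adjusted p = 0.0294). UPK1A had 70.57 and 92.53, 16.1 and 18.47, and 39.58 and 44.42 TPM in the same order, 0.207-fold in Ni-E vs UT (adjusted p = 0.0377). Without either Ni-E library both calls in Ni-E vs UT were lost, at an adjusted p of 0.0927 and 0.117 for KRT20 and 0.321 and 0.267 for UPK1A, and that of UPK1A was also lost without UT replicate 1 (0.0706) or UT replicate 2 (0.152). The KRT20 call in Ni-W vs UT was lost without any one of the 6 libraries (log2 fold change -3.1 to -2.8). It was also lost with only the 2 groups compared (edgeR adjusted p = 0.114) and in limma on log2(TPM + 0.1) (adjusted p = 0.0689). With the block, UPK1B, UPK2, UPK3A and FOXA1 fell too in Ni-E vs UT, and UPK1A fell in Ni-W vs UT. UPK3B of the same list was higher in Ni-E vs UT with the block (1.342-fold, edgeR adjusted p = 0.0171), short of 1.5-fold. The basal keratins KRT5 and KRT17 were called higher there with the block (2.265-fold and 1.594-fold, adjusted p = 0.0042 and 0.00338). In the blocked model for Ni-W vs Ni-E, 6 urothelial markers rose and 0 fell (KRT20, UPK1A, UPK1B, UPK2, UPK3A and FOXA1), KRT20 by 8.544-fold (edgeR adjusted p = 0.00302) and also in DESeq2 (log2 3.11, adjusted p = 0.00162). Marker sums of other cell types were low. For 7 fibroblast genes they were 1.09 to 5.21 TPM, with COL1A2 and DCN at 0. The most abundant fibroblast gene was COL1A1 in UT cells (0.85 and 0.8 TPM) and COL3A1 in Ni-E and Ni-W cells. For 4 leukocyte genes the sums were 7.4 to 13.65 TPM (CD68 the most abundant, with CD3E at 0). For 3 endothelial genes they were 0.61 to 1.9 TPM (VWF the most abundant). None of these top genes was called by edgeR without the block, and 3 were with it. COL3A1 had 0.84 and 0.26 TPM in UT, 4.13 and 2.18 in Ni-E, and 4.55 and 1.48 in Ni-W cells, and with the block it was called 6.25-fold and 5.272-fold higher in Ni-E vs UT and Ni-W vs UT (edgeR adjusted p = 3.56e-05 and 0.000115). With the block CD68 was called 1.591-fold and 1.766-fold higher in the same comparisons (adjusted p = 0.0297 and 0.0152), and VWF was called lower in Ni-E vs UT, at 0.562-fold (adjusted p = 0.0138). The part of these shifts in the values of the methyltransferases was not tested.

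In BEAS-2B cells the promoters of the 9 genes were marked by H3K4me3 in all 3 conditions. The level is given in RPKM over 4 kb centred on the start site, with intervals that cover counting error only. In UT cells the levels ran from 4.13 RPKM at SETDB1 to 12.6 RPKM at EZH2, between 2.63 and 8.06 times the median of all listed promoters (1.57 RPKM). A count of 3 reads, taken as the floor, was worth 0.0264 RPKM in that library. As a check of the cells, the promoters of the epithelial keratins KRT8 and KRT18 had 7.33 and 7.26 RPKM in UT cells, while the epithelial genes KRT19, CDH1 and EPCAM had 0.432, 1.02 and 2.21 RPKM. Of the basal markers KRT5 had 0.22, TP63 had 0.388 and KRT17 had 1.93 RPKM, and of 7 fibroblast genes COL1A1 (8.74), PDGFRB (6.98) and PDGFRA (2.61) were above the median of all promoters while COL1A2 (0.476), COL3A1 (0.167), DCN (0.229) and LUM (0.396) were below it. The epithelial list was thus mixed, in cells labelled as lung epithelial, with KRT8, KRT18, EPCAM, KRT17 and the lung factor NKX2-1 (2.76 RPKM) above the median of all promoters and KRT19, KRT5, TP63, CDH1 and the alveolar marker SFTPC (0.37 RPKM) below it.

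**Figure D4:**
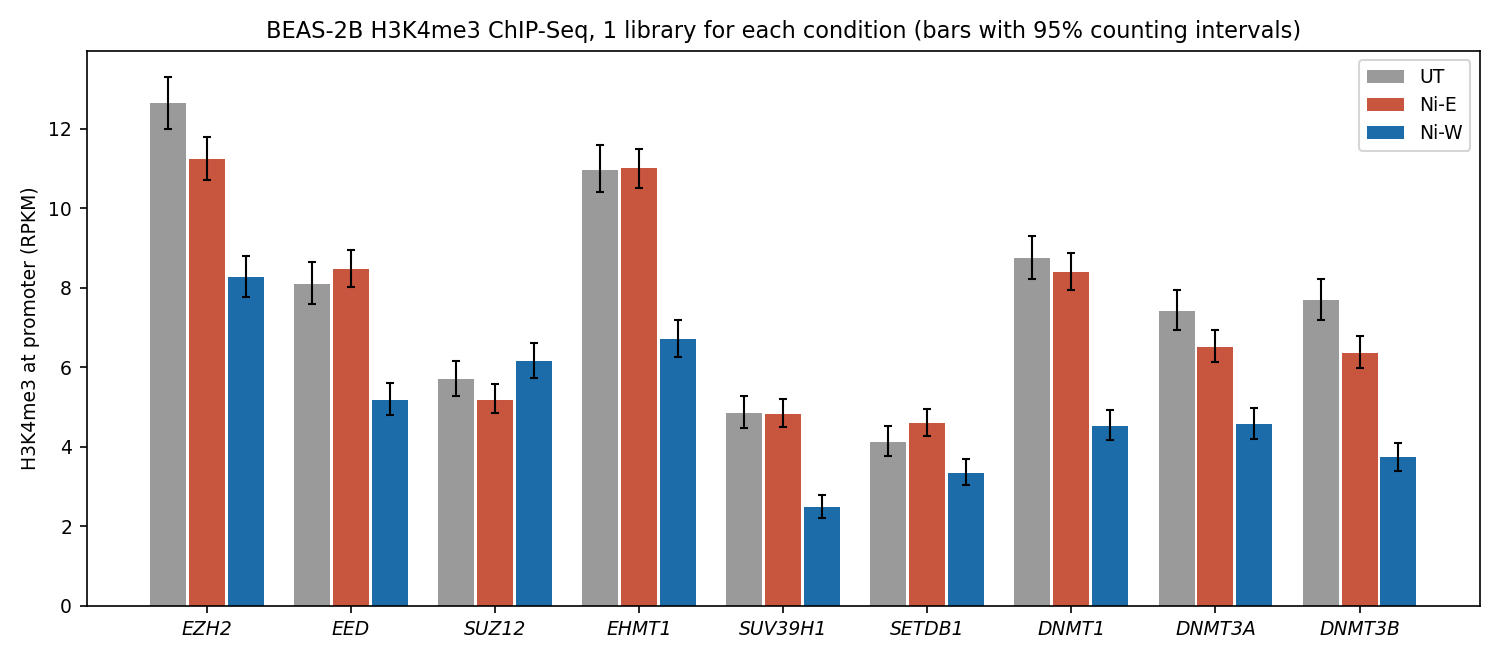
H3K4me3 at the promoters of the 9 listed genes in BEAS-2B cells (RPKM, axis from 0), with 1 library for each of UT (grey), Ni-E (red) and Ni-W (blue) and 95% Wilson intervals for counting error. The Ni-W bar is the lowest of the 3 at 8 genes and the highest at SUZ12, where its interval overlaps that of UT.

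Of the PRC2 genes, EZH2 had 12.6 RPKM (95% interval 12.0 to 13.3) in UT, 11.2 (10.7 to 11.8) in Ni-E and 8.26 (7.76 to 8.79) in Ni-W cells. EED had 8.1, 8.48 and 5.19 RPKM, in a window shared with a long noncoding RNA. That RNA starts 220 bases away on the other strand and has no listed promoter of its own. SUZ12 had 5.7 (5.28 to 6.15), 5.19 (4.84 to 5.57) and 6.16 (5.73 to 6.62) RPKM, the only one of the 9 promoters with its highest value in Ni-W cells. The SUZ12 intervals of UT and Ni-W cells overlapped. EHMT1 had 11.0, 11.0 and 6.72 RPKM, in a window shared with ARRDC1-AS1, an antisense transcript that starts 99 bases away and had 11.0, 11.0 and 6.74 RPKM. SUV39H1 had 4.84, 4.83 and 2.48 RPKM, and SETDB1 had 4.13, 4.59 and 3.35. DNMT1 had 8.74, 8.4 and 4.53 RPKM, DNMT3A had 7.42, 6.52 and 4.57, and DNMT3B had 7.7, 6.37 and 3.73. All but SUZ12 were thus lowest in the Ni-W library, which also had the lowest median (1.12 RPKM, beside 1.57 in UT and 1.39 in Ni-E) and 22.9% of its reads in the listed promoters, beside 37.6% and 36%.

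Each library was therefore divided by its median before ratios were taken, and a ratio of at least 1.5-fold was counted for promoters with at least 1 RPKM in either library. There was no replicate and no test. In Ni-E vs UT none of the 9 promoters passed 1.5-fold, in a comparison where 1.41% of 13935 promoters did. The ratios ran from 0.935 at DNMT3B to 1.26 at SETDB1. SETDB1 (95% interval 1.11 to 1.41), EED (1.18, 1.09 to 1.29), EHMT1 (1.13, 1.05 to 1.22) and SUV39H1 (1.13, 1.01 to 1.26) had intervals above 1. Without median scaling their ratios were 1.11, 1.05, 1 and 0.996 in that order. The median ratio of 9525 promoters with UT levels in the same range was 1.08. SETDB1 was above 96.6% of them, EED above 87.1% and DNMT3B above 5.07%, with the other 6 between 14.6% (DNMT3A) and 72.2% (EHMT1).

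In Ni-W vs UT 22.8% of 14059 promoters passed 1.5-fold, 4.36% higher and 18.4% lower. Of the 9 promoters, SUZ12 passed it, at 1.52-fold higher (95% interval 1.36 to 1.69). None passed it in the other direction, with DNMT3B (0.68), SUV39H1 (0.717) and DNMT1 (0.726) the nearest. The median log2 ratio of the 9 was -0.21, beside -0.32 for all promoters counted. These counts depended on the scaling. Without it, 71.2% of all promoters and 7 of the 9 were at least 1.5-fold lower, and SUZ12 had a ratio of 1.08. With quantile normalization, 5.28% of all promoters and none of the 9 were lower, while 8.06% of all promoters were higher, SUZ12 among them by 1.81-fold. SUZ12 was above 1 under all 3 scalings, although its unscaled levels in UT and Ni-W cells had overlapping counting intervals. SETDB1 was 1.14, 0.811 and 1.43 with the median, without scaling and with quantiles.

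In Ni-W vs Ni-E 34.6% of 13965 promoters passed 1.5-fold, 4.04% higher and 30.5% lower. SUV39H1 passed it with a ratio of 0.637 (95% interval 0.555 to 0.73), and DNMT1 (0.668) lay just short of it. SUZ12 was 1.47 (1.33 to 1.63). Without scaling, 66.4% of all promoters passed (2.26% higher and 64.2% lower), and 5 of the 9 were lower. With quantile normalization 13.8% of all promoters passed (8.03% higher and 5.81% lower), SUV39H1 was 0.848 and SUZ12, at 1.9, was the only one of the 9 past 1.5-fold. The 2 comparisons of Ni-W cells share the Ni-W library and are not independent of each other.

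**Figure D5:**
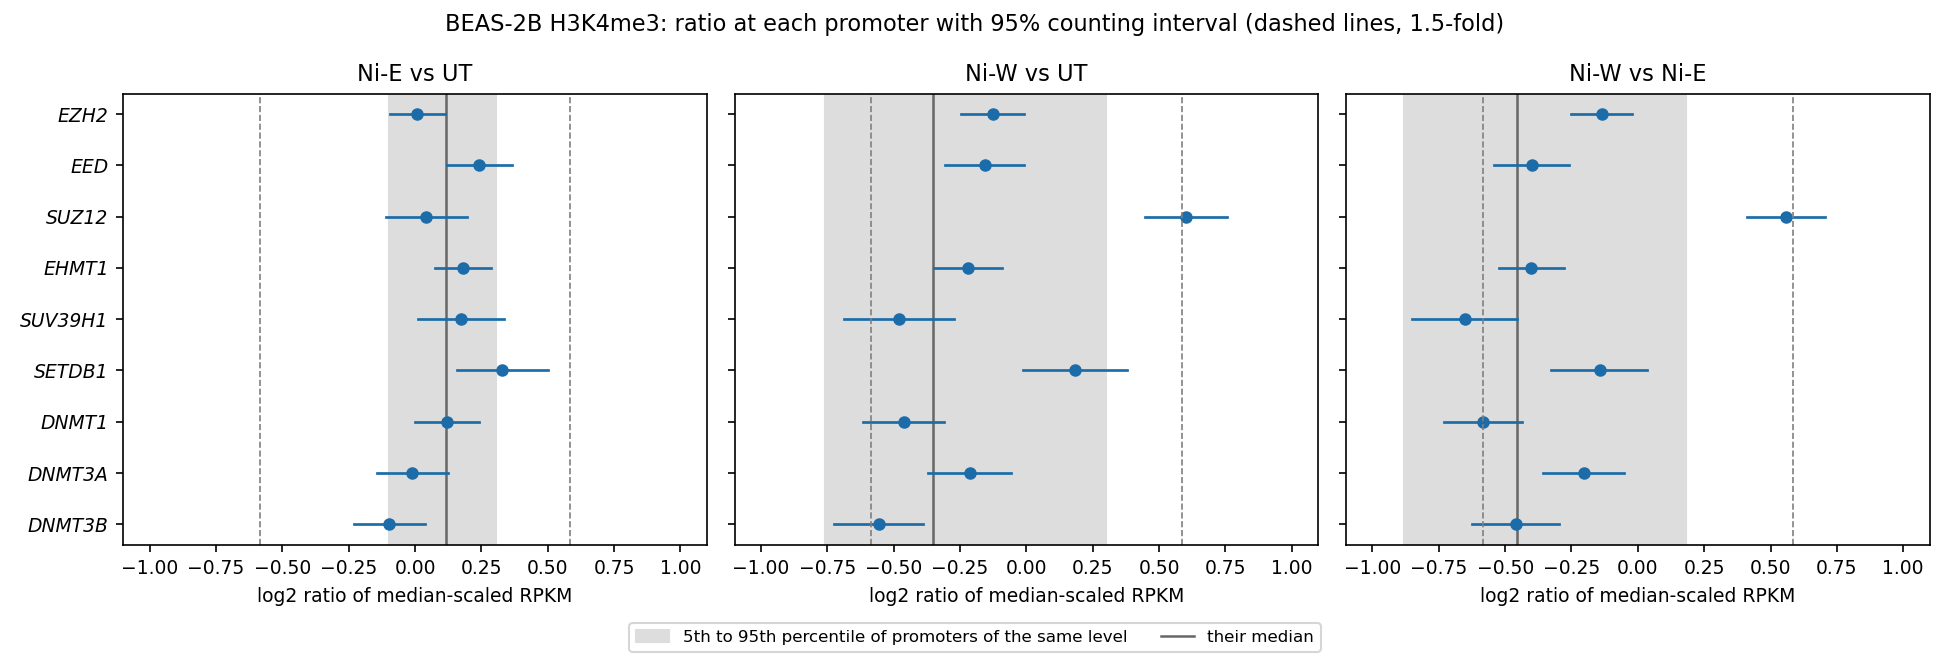
Log2 ratio of median-scaled H3K4me3 at 9 promoters (horizontal axis) for 3 comparisons of BEAS-2B libraries, with 95% intervals for counting error. The grey band spans the 5th to 95th percentile of 9525 promoters with UT levels in the range of the 9, the solid line is their median and dashed lines mark 1.5-fold. SUZ12 lies to the right of the band in both comparisons of Ni-W cells.

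Promoters with UT levels in the same range give a scale for these ratios without a test. In Ni-W vs UT their median ratio was 0.784, 1.4% were at least 1.5-fold higher and 18.5% at least 1.5-fold lower. The ratio of SUZ12 was above that of 98.7% of them, and in Ni-W vs Ni-E above that of 99.1%. SETDB1 was above 91.5% in Ni-W vs UT and 80.8% in Ni-W vs Ni-E. The other 7 lay between 22.1% (DNMT3B) and 73.5% (EZH2) in Ni-W vs UT.

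Position in the genome was compared too. Within 1 Mb of SUZ12, 16 other promoters had a median ratio of 0.977 in Ni-W vs UT, and 3 of them were at least 1.5-fold higher, namely EVI2B (2.54, at 0.722 RPKM in UT), MIR632 (1.62) and ZNF207 (1.61). The last pair start at 413.1 and 413.2 kb from SUZ12 and share most of their windows, so that they count as 1 region. The nearest, UTP6, 35.3 kb away, had 0.979. The promoters within 1 Mb of DNMT1 (44, median 0.686) and SUV39H1 (28, median 0.683) had ratios close to those of the 2 genes, while those around DNMT3B (21, median 0.806) were higher than DNMT3B at 0.68. The SUZ12 window also matched the SUZ12P1 region over 2784 of its 4001 bases (69.6%) at 95.7% identity. SUZ12P1 had 9.79 RPKM in UT, 9.54 in Ni-E and 5.87 in Ni-W cells, a ratio of 0.84 in Ni-W vs UT, near the median of 0.784 for promoters with UT levels in the range of the 9 genes. Whether reads were divided between the 2 windows was not tested.

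Among promoters with at least 1 RPKM, none passed 1.5-fold in Ni-E vs UT in the lists for PRC2, PRC1, H3K9 methylation, DNA methylation, TET enzymes and methyl donor supply. In Ni-W vs UT, ATF7IP, the partner of SETDB1, had 5.44 RPKM in UT, 4.47 in Ni-E and 7.98 in Ni-W cells, a ratio of 2.05 (95% interval 1.85 to 2.28), and 1.47 without scaling. TRIM28, which brings SETDB1 to zinc finger proteins, went the other way, with 12.5, 12.2 and 4.68 RPKM and a ratio of 0.524 (0.474 to 0.578). These were 2 of the 12 H3K9 genes measured, and the other 10 stayed within 1.5-fold with median scaling. Without it 6 of the 12 were at least 1.5-fold lower and 0 higher, and with quantile normalization 1 was higher and 1 lower. Of 13 PRC1 genes measured, 4 were at least 1.5-fold lower (CBX6, CBX7, PCGF1 and PCGF6) and none higher, where 18.4% of all promoters were lower, and of 6 measured PRC2 partners none passed. Of 12 partners of DNA methylation, 3 were lower (UHRF2 at 0.582, USP7 at 0.652 and PCNA at 0.519). TET1 (0.618) was the only one of 6 TET, base excision and IDH genes past 1.5-fold. Of 6 methyl donor genes measured, 2 were lower, MTAP at 0.548 among them. The counts of lower promoters moved with the scaling, to 3 of the PRC2 partners, 12 of the PRC1 genes, 10 of the partners of DNA methylation, 6 of the TET, base excision and IDH genes and 4 of the methyl donor genes without it, and to 0, 0, 1, 0 and 0 with quantile normalization.

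Set side by side, the RNA of RT4 cells and the promoters of BEAS-2B cells come from different lines and, for Ni-W, from different times without nickel, so that they cannot be compared gene by gene as a change. DNMT1 had 57.9 TPM in UT RT4 cells and 8.74 RPKM of H3K4me3 at its promoter in UT BEAS-2B cells, while DNMT3B, with 3.26 TPM, had 7.7 RPKM. SUZ12, whose promoter ratio in Ni-W vs UT was 1.52 in BEAS-2B cells, had a fold change of 1.017 in RT4 cells with the replicate block (95% interval 0.799 to 1.293). Without the block its log2 fold change there was 0.07, and leaving out 1 library moved it from -0.79 to 0.74. Reads in the part that SUZ12 shares with SUZ12P1 could also be assigned to either gene.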

How the data were processed

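RNA was measured in 6 RT4 libraries and H3K4me3 in 3 BEAS-2B libraries. The authors deposited RSEM estimated counts and TPM for each gene of RT4 cells. The paper's methods describe STAR alignment to hg19, while the submitters' processing notes name GRCh38 and hg38, and the build behind the estimated counts is not given in the sources used here. The deposited FPKM values entered no test. The deposited RPKM of H3K4me3 covers 2 kb on each side of a start site, from reads mapped by BWA to hg38, counted once where redundant. Which start site was taken, and whether the biological replicates of the ChIP were pooled, is not stated. The labels name 2 weeks without nickel for both lines as well as over 6 months for the BEAS-2B population. Input libraries were not analysed here.

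The estimated counts were rounded and tested with edgeR 4.0.16 (quasi-likelihood, TMM, filterByExpr; R 4.3.3) in 1 model of the 3 conditions, with Benjamini-Hochberg adjustment over 14502 genes. Intervals are 95%. The number in the titles (1 library of each condition is a duplicate) was taken to pair libraries, since deviations from the condition mean correlated at 0.845, 0.911 and 0.838 between same-numbered libraries of the 3 pairs of conditions, over 0.1 in each. The deposited RPKM values were whole multiples of 1 step, within 0.0006 RPKM, for 100% of promoters, which gave reads and Wilson intervals. Intervals of ratios and levels cover counting error only. Positions come from GENCODE version 44, promoter sequences from RefSeq, and likeness to SUZ12P1 from blastn 2.17.0. Alternatives were limma 3.58.1, DESeq2 1.42.0, other filters, scalings and call rules, the replicate block, and each library left out in turn.

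The genes and lists were chosen with earlier results of these data known. All 10 genes are named. Of the lists of partners, called genes are named, up to 4 for each list and comparison by size of change, or else up to 2 with the smallest p; other genes named, such as those called with the block, were chosen after their values were seen. Some genes that the rule names are not reported here. The code was tested on simulated data.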

Additional observations from a re-analysis of the deposited data

How the results depend on the processing

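None of the 9 tested genes was called in RT4 cells under any alternative run, the fold minimum being dropped only in the model without the block. With the block and no fold minimum, EED passed in Ni-E vs UT and Ni-W vs UT, as given above. Of 462 log2 fold changes under alternatives 440 kept their direction, and values that rounded to no change were counted as kept. The rules with no fold minimum and a 2-fold minimum reuse the main fit, so that their values among the 440 could not turn. The other 22 of the 462 turned. SUZ12 in Ni-E vs UT turned with the replicate block (0.0662) and with limma at a pseudocount of 1 (0.0503, with or without filter) or 0.1 (0.0583), and in Ni-W vs Ni-E with the block (-0.0424). EHMT1 in Ni-W vs UT was 0.0238 with limma at a pseudocount of 1, with or without filter, and 0.0242 at 0.1. Leaving out 1 library moved SUZ12 from -0.47 to 0.67 in Ni-E vs UT, from -0.79 to 0.74 in Ni-W vs UT and from -0.77 to 0.61 in Ni-W vs Ni-E. The ranges were -0.15 to 0.27 for DNMT3B in Ni-E vs UT, -0.20 to 0.0096 for DNMT1 and -0.13 to 0.16 for DNMT3A in Ni-W vs UT, and -0.20 to 0.12 for SUV39H1 and -0.0481 to 0.22 for SETDB1 in Ni-W vs Ni-E. Of the other genes, leaving out 1 library gave 0.28 to 1.29 for TET2 and -3.77 to -2.15 for MAGEB2 in Ni-E vs UT, -0.19 to 0.21 for CDCA7 and -0.31 to 1.17 for TET2 in Ni-W vs UT, and -0.34 to 0.0835 for HELLS, -1.06 to 0.41 for TET2 and -0.15 to 1.61 for MAGEB2 in Ni-W vs Ni-E. The cause was not tested.

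Genes called over the whole table in Ni-E vs UT (314 as reported) were 1833 with the replicate block, 730 with DESeq2, 209 with at least 10 counts in every sample, and 170, 173 and 120 with limma at a pseudocount of 1, of 0.1 and without filter. In Ni-W vs UT (87 as reported) they were 1243 with the block, 442 with DESeq2, 193 without filter, 54 with at least 10 counts, and 0 with only the 2 groups compared. In Ni-W vs Ni-E (0 as reported) they were 655 with the block, 139 with DESeq2, 14 without filter and 11 with limma at a pseudocount of 0.1. Leaving out 1 library gave 0 to 320, 0 to 38 and 0 to 0, with 0 in Ni-E vs UT without either Ni-E library, 44 and 18 without UT replicate 1 and 2, and fewer than 87 in Ni-W vs UT without any one of the 6, where the lone library of a condition is assumed to vary like the others. With the 1.5-fold minimum the block changed no call of the 9 genes.

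For H3K4me3, promoters past the fold in Ni-E vs UT (197 as reported) were 43 for a ratio of (RPKM + 1), 3645 with no minimum RPKM and 36 at 2-fold. In Ni-W vs UT (3201 as reported) they were 10268 without median scaling, 1875 with quantiles, 1496 for (RPKM + 1), 8573 with no minimum and 480 at 2-fold. In Ni-W vs Ni-E (4826 as reported) they were 9277, 1933, 2817, 9739 and 625 in the same order. Of the 9 genes, 7 and 5 passed without median scaling in the Ni-W vs UT and Ni-W vs Ni-E comparisons, and 0 for (RPKM + 1) and 0 at 2-fold in either. The design has 2 libraries or 1 library a condition, which limits what could be detected.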

Other observations

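BMI1, a core subunit of Polycomb repressive complex 1, was lower in replicate 2 than in replicate 1 of the RT4 libraries by a log2 difference of -1.58 (edgeR adjusted p = 0.00427), and PHC3 of the same complex by -0.72 (adjusted p = 0.00105), while PCGF1 (0.68, adjusted p = 0.00111) and PCGF2 (0.68, adjusted p = 0.000438) were higher. Of the 18 proliferation genes, the mitotic kinase gene CDK1 was the only one whose promoter was at least 1.5-fold higher in Ni-W than in UT BEAS-2B cells, at a ratio of 1.62 (95% interval 1.48 to 1.78, for counting error only), which was 1.16 without scaling and 1.89 with quantile normalization. PCNA (0.519), TYMS (0.574) and MCM5 (0.605) were at least 1.5-fold lower, where 18.4% of all promoters were. Of the 18, 14 were lower without scaling and 1 with quantile normalization.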
